A study of Mus musculus with 12 samples.

Results

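The Cyp2a and Cyp2d families of cytochrome P450 genes were examined in mouse liver by genotype and sex. The genes were chosen by symbol: Cyp2a4, Cyp2a5, Cyp2a12 and Cyp2a22 on chromosome 7, and Cyp2d9, Cyp2d10, Cyp2d22, Cyp2d26 and Cyp2d40 on chromosome 15. These 9 genes are 9 of the 23420 gene rows of the count tables, and all 9 had reads. Cytochrome P450 enzymes of these families sit in the endoplasmic reticulum of hepatocytes, take electrons from the reductase encoded by Por, and oxidize steroids, bile acids, drugs and plant compounds. Several of them have long been known as sex-specific liver genes in mice, with the pituitary pattern of growth hormone release as the best studied signal. Each family lies in a cluster of closely related copies, so that a gene used in one sex can lie in the same cluster as a near-identical gene used in both.

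Livers were taken at Zeitgeber time (ZT) 10, a time late in the light phase, from C57BL/6 mice of about 20 weeks on a 12:12 light-dark cycle with chow available at all times. There were 3 wild type females (WTF), 3 Siah2 KO females (KOF), 3 wild type males (WTM) and 3 Siah2 KO males (KOM), and the mouse numbers of the labels name the replicates below. Siah2 encodes a ubiquitin ligase. The Siah2-/- mice carry the deletion in every tissue and, like the wild type mice, came from lines set up by intercrossing heterozygotes, so the genotypes are related lines rather than littermates of 1 cross. The study describes 1 liver per library, whereas the labels speak of RNA pooled from 3 mice; the libraries were treated here as single mice. In whole liver, fewer cells of a type and less RNA per cell cannot be told apart.

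RNA was counted with QuantSeq, which yields 1 read near the 3' end of each captured transcript, so levels of different genes did not need a correction for length. Library totals ran from 1293688 to 4056144 reads, and levels are given as CPM (reads of a gene per 1e6 reads) after TMM scaling. Siah2 itself read 11.4 to 16.9 CPM in WTF, 9.57 to 12.5 CPM in KOF, 16.8 to 27.0 CPM in WTM and 9.39 to 17.3 CPM in KOM; the place of the deletion relative to the 3' tag is unknown here, and these reads do not check the genotype. The summed level of 8 hepatocyte markers was 37849 to 69108 CPM in the 12 libraries, while markers of fat, pancreas and lymphocytes together stayed at or below 26.3 CPM for any 1 of these types. Among the red cell markers Hba-a1, Hba-a2, Hbb-b1 and Hbb-b2 were listed at 0 in all 12 libraries, and Alas2 read 8.43 to 25.1 CPM in females and 83.6 to 154 CPM in males. Macrophage markers summed to 294 to 726 CPM in females and to 68.7 to 528 CPM in males. The part of these other cells in the sex differences below was not tested. WTF 1091 stood apart most across all genes, with the lowest scaling factor (0.90), and results that turned on it are named with their values.

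The 4 Cyp2a genes lay between bases 26307192 and 27036818 of chromosome 7, a span of 729627 bases, and the 5 Cyp2d genes between bases 82370527 and 82794452 of chromosome 15, a span of 423926 bases (GRCm38.p6, the patch release of mm10). Within these spans 6 of the genes formed 3 pairs of close relatives, and in each pair 1 gene differed strongly between the sexes. Cyp2a4 and Cyp2a5 shared 98.45% of their aligned coding bases, Cyp2a12 and Cyp2a22 shared 96.96%, and Cyp2d9 and Cyp2d10 shared 92.48%. Over the 250 bases before the annotated start, the identity was 98.39% with 4 substitutions for the first pair, 89.96% with 19 substitutions for the second and 84.74% with 33 substitutions for the third. The stretch from 150 to 36 bases before the RefSeq start of each of the 6 genes is printed here to show, for each pair, how alike the promoter of a sex-biased gene and that of its relative are; other differing bases lie outside it. Each is written 5' to 3' on the strand of the gene, and capitals mark bases substituted against the relative in the alignment. Bases that face a gap in the alignment are left in lower case.
Cyp2a4 (chr7:26307042-26307156, plus strand): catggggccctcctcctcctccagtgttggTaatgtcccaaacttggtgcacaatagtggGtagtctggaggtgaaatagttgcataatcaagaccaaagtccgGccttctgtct
Cyp2a5 (chr7:26835189-26835303, plus strand): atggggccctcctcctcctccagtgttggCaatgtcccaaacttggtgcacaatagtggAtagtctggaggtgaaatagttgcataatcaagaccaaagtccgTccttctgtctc
Cyp2a22 (chr7:26939422-26939536, minus strand): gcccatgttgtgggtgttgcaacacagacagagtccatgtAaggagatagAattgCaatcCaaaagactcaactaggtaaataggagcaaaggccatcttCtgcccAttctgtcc
Cyp2a12 (chr7:27028940-27029054, plus strand): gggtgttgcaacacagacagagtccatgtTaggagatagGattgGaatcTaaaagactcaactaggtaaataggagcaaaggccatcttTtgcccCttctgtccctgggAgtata
Cyp2d9 (chr15:82452227-82452341, plus strand): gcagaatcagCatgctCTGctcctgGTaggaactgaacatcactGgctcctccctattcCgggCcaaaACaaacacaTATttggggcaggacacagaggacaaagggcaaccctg
Cyp2d10 (chr15:82407230-82407344, minus strand): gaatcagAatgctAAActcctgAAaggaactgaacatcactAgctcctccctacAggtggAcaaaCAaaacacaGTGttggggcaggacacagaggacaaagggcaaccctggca
The first pair differed by substitution at 3 bases in this stretch and the third at 14. Gap bases are not in these counts. Over the 250 bases the alignment of the first pair had 0 gap bases and that of the third had 5, some of them in the printed stretch. The Cyp2d10 stretch overlaps the longest RefSeq gene record by 24 bases, because that record starts farther upstream than the start used in the promoter table. RefSeq promoter sequence was at hand for 8 of the 9 genes, Cyp2d22 being the exception.

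Of 6 short motifs searched on both strands of these 250 bases, none was in 1 gene of a pair and missing from the other. TTATGCAA, a form of the D-box bound by the PAR bZIP factors Dbp, Tef and Hlf, was present in both Cyp2a4 and Cyp2a5, at -70 and -71 from the start, and in 0.744% of 27025 promoters. CAAAGTCC, a short site of the hepatocyte factor Hnf4a, was again in both of these genes (1.22% of promoters). AGGNCAAAG, another Hnf4a form, was in Cyp2d9, Cyp2d10 and Cyp2d40 (1.78% of promoters), and in the printed Cyp2d9 and Cyp2d10 stretches it reads aggacaaag. TTANNTAA was in Cyp2d26 alone (5.55% of promoters), TATAAA in all 8 searched genes (13.0%), and TTCNNNGAA, the form bound by Stat5, in 0 of the 8 (7.18%). A match describes letters only.

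The question of sex within each genotype gave the widest differences among the 9 genes. Cyp2a4, a steroid hydroxylase, and Cyp2a22 were higher in females, and Cyp2d9, a testosterone hydroxylase known as male-specific, was lower in females, in wild type and Siah2 KO mice alike. By edgeR's quasi-likelihood test at an adjusted p of 0.05, 3 of the 9 were called between wild type females and males, beside 1.39% of the 9335 genes tested, and 3 of 9 between Siah2 KO females and males, beside 11.5% of 9102 genes. DESeq2 called 3 of 9 in each genotype too, beside 3.68% and 10.1% of its genes. The 3 genes called were the same in both genotypes. Over the 9 genes, in which both directions occur, the median log2 fold change was 0.28 in wild type mice (0.05 over all genes) and -0.20 in Siah2 KO mice (-0.0016 over all genes). Females and males were deposited in separate count tables, so sex and table cannot be told apart.

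**Figure D1:**
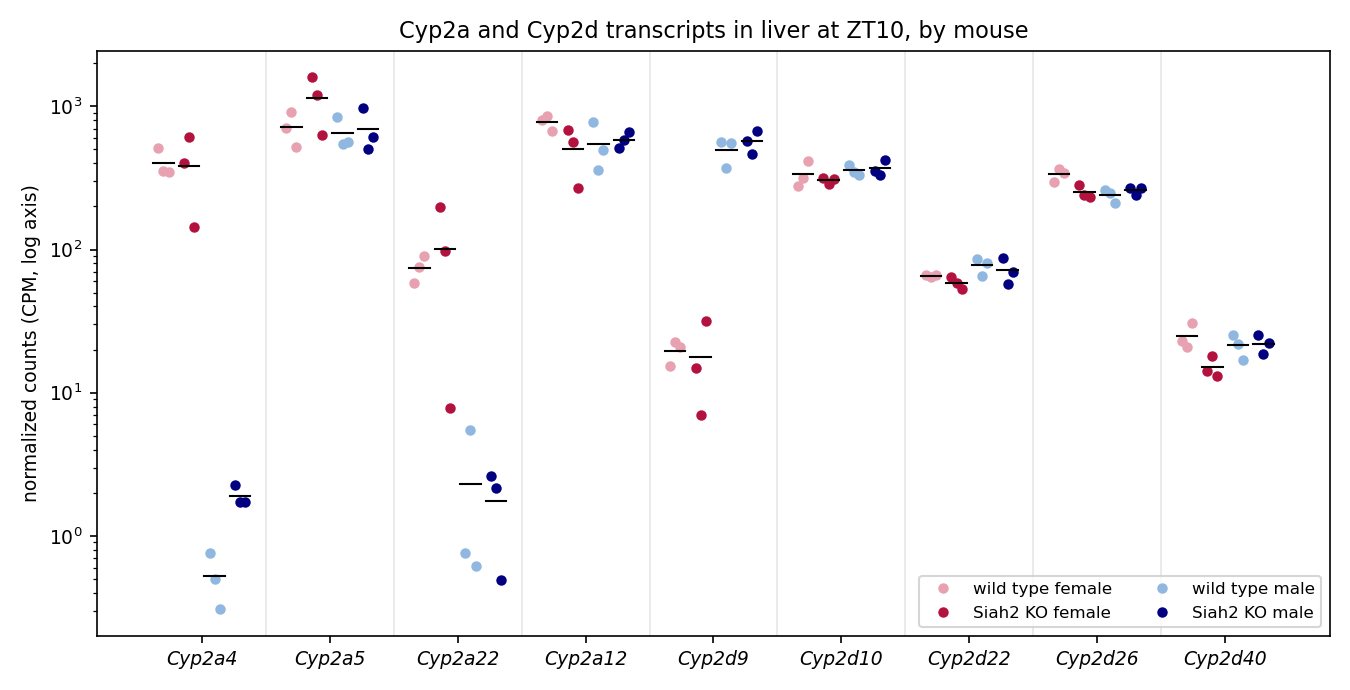
Normalized counts (CPM, log axis) of the 9 Cyp2a and Cyp2d genes, 1 point per mouse, with the mean of each group of 3 as a black line. Cyp2a4 and Cyp2a22 sit lower in both male groups and Cyp2d9 lower in both female groups, while the groups lie closer together for the other 6 genes.

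Cyp2a4 read 513, 351 and 350 CPM in WTF 1089, 1090 and 1091, and 400, 612 and 143 CPM in KOF 1070, 1104 and 1105. The same gene read 0.761, 0.500 and 0.308 CPM in WTM 1055, 1086 and 1087, which is 1 read in each library, and 2.25, 1.73 and 1.72 CPM in KOM 1075, 1076 and 1081. Every female was far above every male, and KOF 1105 was the lowest female. Summed over mice, the reads per total were 872 times as many in WTF as in WTM (95% exact interval 298 to 4229, from 3709 and 3 reads) and 225 times as many in KOF as in KOM (141 to 388). These intervals cover counting error only. The fitted log2 fold change, female over male, was 9.66 ± 0.43 (SE) in wild type mice (adjusted p = 5.13e-06, edgeR's quasi-likelihood test) and 7.66 ± 0.53 in Siah2 KO mice (adjusted p = 1.76e-07), values that depend on how the fit treats 1 read.

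Its near-identical relative Cyp2a5, which hydroxylates coumarin and nicotine, had no such pattern. Cyp2a5 read 708, 916 and 517 CPM in WTF, 1594, 1195 and 629 CPM in KOF, 842, 543 and 562 CPM in WTM and 980, 503 and 611 CPM in KOM, in the same order of mice as above. The groups overlapped, although the top 2 values were both from Siah2 KO females. Females over males gave 0.16 ± 0.29 in wild type mice (95% interval -0.47 to 0.80, adjusted p = 0.837) and 0.72 ± 0.29 in Siah2 KO mice (0.11 to 1.33, adjusted p = 0.123). Without KOF 1105 the latter was 1.003 and passed (adjusted p = 0.0137).

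Reads of the 2 genes could have been exchanged. Among 50-base windows of the last 300 bases of the transcript, 56 of 251 Cyp2a4 windows also occurred in Cyp2a5, and 77.69% of the Cyp2a4 windows were in no other Cyp2 gene. None of the 251 Cyp2a5 windows occurred in another Cyp2 gene. When the counts of Cyp2a4 and Cyp2a5 were summed before the fit, the female to male log2 fold change was 0.81 in wild type mice, which did not pass (adjusted p = 0.195), and 1.13 in Siah2 KO mice, which passed (adjusted p = 0.0245). Cyp2a4 made up 36.7% ± 7.81 (SD, n = 3) of the reads of the pair in WTF, 24.2% ± 8.44 in KOF, 0.0791% ± 0.0210 in WTM and 0.284% ± 0.0566 in KOM. The ranges of KOF and WTF overlapped (two-sided exact permutation test, p = 0.2), and since 3 against 3 cannot give a p below 0.1, the test can call no difference. All 3 KOM lay above all 3 WTM, from 0.230% to 0.342% against 0.0548% to 0.0921%, which gave that smallest p (exact p = 0.1, 0.171 after adjustment over 12 share tests).

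Cyp2a22 and Cyp2a12 repeated the arrangement at a lower level. Cyp2a22 read 58.1, 75.2 and 90.1 CPM in WTF and 199, 97.5 and 7.78 CPM in KOF. In males it read 0.761, 5.50 and 0.617 CPM in WTM and 2.63, 2.16 and 0.491 CPM in KOM. No male reached the lowest female, KOF 1105, whose 7.78 CPM rested on 13 reads. The female to male log2 fold change was 5.08 ± 0.59 in wild type mice (adjusted p = 0.00188) and 6.02 ± 0.89 in Siah2 KO mice (adjusted p = 0.000476). It moved to 6.76 without WTM 1086 and 4.41 without WTM 1087, and in Siah2 KO mice to 5.08 without KOF 1070; limma-voom did not call the Siah2 KO difference (adjusted p = 0.0924).

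Cyp2a12, an enzyme of bile acid hydroxylation, read 798, 855 and 668 CPM in WTF, 685, 566 and 270 CPM in KOF, 775, 359 and 492 CPM in WTM and 508, 585 and 665 CPM in KOM. All 4 groups overlapped with at least 1 other, and the sexes gave 0.55 ± 0.30 in wild type mice (adjusted p = 0.435) and -0.20 ± 0.25 in Siah2 KO mice (adjusted p = 0.671). Cyp2a22 supplied 8.92% ± 2.65 of the reads of this pair in WTF, 13.3% ± 9.91 in KOF, 0.578% ± 0.808 in WTM and 0.319% ± 0.224 in KOM. At the transcript ends, 26 of 251 Cyp2a12 windows occurred in Cyp2a22, and none of the Cyp2a22 windows occurred in another Cyp2 gene.

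In the pair of Cyp2d9 and Cyp2d10, Cyp2d9 was higher in males. Cyp2d9 read 561, 371 and 551 CPM in WTM and 576, 467 and 670 CPM in KOM, against 15.4, 22.7 and 20.9 CPM in WTF and 14.8, 6.96 and 31.7 CPM in KOF. Every male was above every female, and KOF 1105 was the highest female. The female to male log2 fold change was -4.61 ± 0.31 in wild type mice (adjusted p = 6.71e-05) and -5.10 ± 0.35 in Siah2 KO mice (adjusted p = 1.50e-07), or 24.4-fold and 34.2-fold lower in females.

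Cyp2d10 read 278, 318 and 413 CPM in WTF, 317, 289 and 311 CPM in KOF, 389, 347 and 333 CPM in WTM and 354, 332 and 422 CPM in KOM. The highest KOF was below the lowest KOM, but the difference did not pass (-0.27 ± 0.15, 95% interval -0.58 to 0.05, adjusted p = 0.282). In wild type mice the sexes overlapped (-0.04 ± 0.25, adjusted p = 0.957). Cyp2d9 made up 57.7% ± 5.48 of the reads of the pair in WTM and 60.6% ± 1.85 in KOM, and 5.58% ± 0.962 in WTF and 5.36% ± 3.53 in KOF. Of 251 end windows, 83.67% for Cyp2d9 and 86.45% for Cyp2d10 occurred in no other Cyp2 gene. With Cyp2d9, Cyp2d10 and Cyp2d11 summed, the sex difference was -1.22 in wild type mice (adjusted p = 0.0569) and -1.53 in Siah2 KO mice (adjusted p = 2.05e-05).

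**Figure D2:**
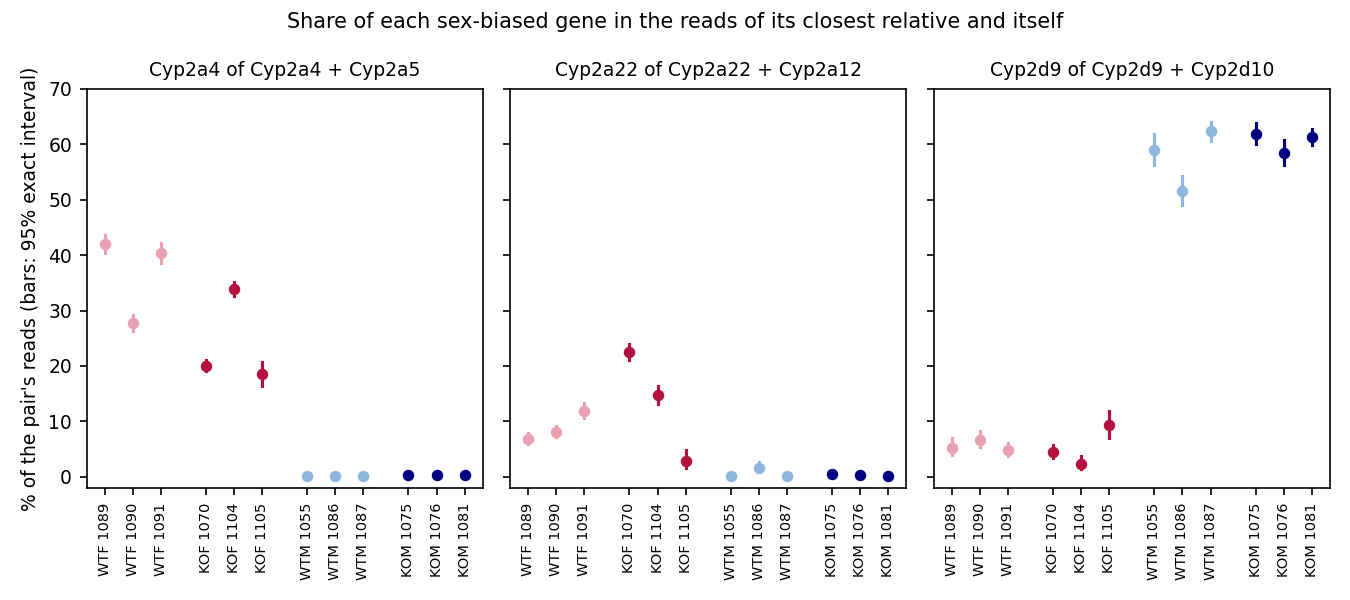
Share of reads, in percent, of Cyp2a4, Cyp2a22 and Cyp2d9 within the reads of each gene and its closest relative, 1 point per mouse with its 95% exact binomial interval (counting error only). Cyp2a4 is below 0.35% of its pair in every male and above 18% in every female, and Cyp2d9 is above 51% in every male and below 9.3% in every female.

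The other 3 genes, Cyp2d22, Cyp2d26 and Cyp2d40, were not called between the sexes in either genotype. Cyp2d26 read 297, 363 and 345 CPM in WTF and 259, 248 and 211 CPM in WTM, so that every wild type female was above every wild type male. That difference was 0.52 ± 0.23 on the log2 scale and did not pass (adjusted p = 0.311), and in Siah2 KO mice it was -0.03 ± 0.15 (adjusted p = 0.930). Cyp2d40 was lower in all 3 KOF than in all 3 KOM (-0.53 ± 0.24, adjusted p = 0.178). Groups did not overlap for 4 of 9 genes between the wild type sexes (22.7% of all genes tested) and for 5 of 9 between the Siah2 KO sexes (30.7%).

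**Figure D3:**
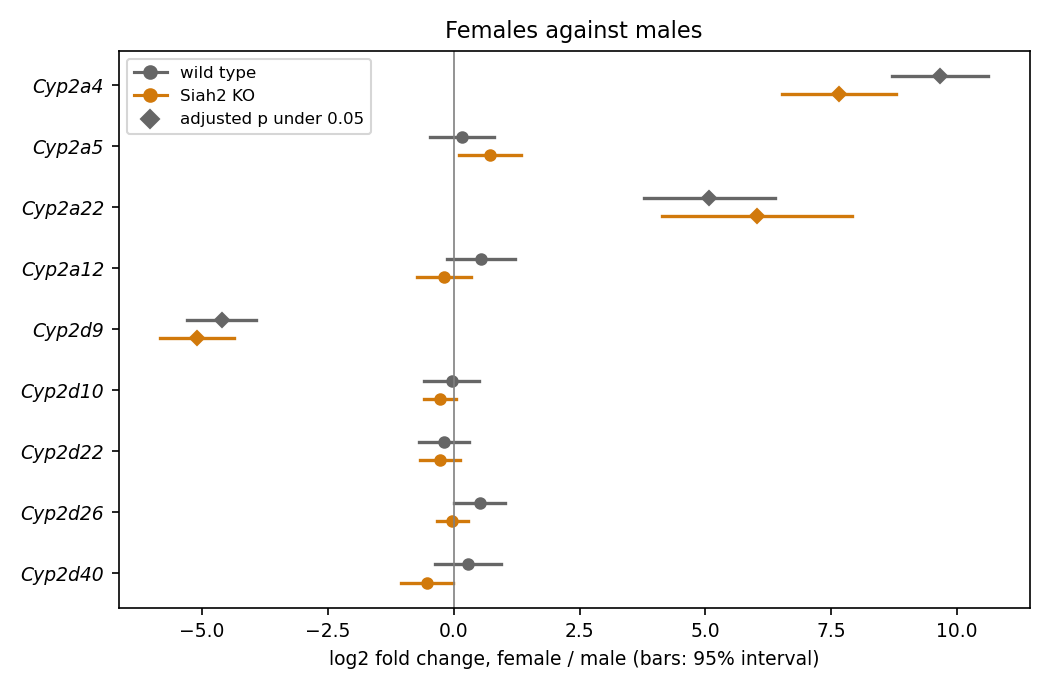
Log2 fold change of females over males for the 9 genes in wild type (grey) and Siah2 KO (orange) mice, with 95% intervals; diamonds mark an adjusted p under 0.05. Cyp2a4 and Cyp2a22 lie far to the right (9.66 and 5.08 in wild type mice), Cyp2d9 lies to the left (-4.61), and the other 6 genes lie within 1 unit of 0.

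The effect of Siah2 loss was asked within each sex. None of the 9 genes passed in females: 0 of 9 were called beside 0.0% of the 9465 genes tested by edgeR, and 0 of 9 by DESeq2, which called 3.6% of 8358 genes. At an unadjusted p under 0.05 edgeR had 1 of the 9, Cyp2d40, and 15.6% of all genes. The sign was lower in Siah2 KO females for 7 genes and higher for 2, with a median of -0.18 against -0.03 over all genes. In males 7 genes had enough reads to be tested; 0 were called beside 0.0% of 8823 genes, and DESeq2 called 0 of 9 beside 0.037%. At an unadjusted p under 0.05 edgeR had 0 of the 7, and 4.05% of all genes. The sign was higher in Siah2 KO males for 6 of the 7.

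Among females, Cyp2d22, Cyp2d26 and Cyp2d40 had groups that did not overlap, all lower in KOF, which was 3 of 9 beside 23.4% of all genes without overlap in either direction and 11.9% lower without overlap. Cyp2d40 read 22.9, 20.9 and 30.8 CPM in WTF and 14.3, 18.0 and 13.2 CPM in KOF. All 3 KOF were lower, and the change was -0.72 ± 0.28 (95% interval -1.34 to -0.10, adjusted p = 0.243). Cyp2d26 read 281, 242 and 234 CPM in KOF, each below the lowest WTF, and the change was -0.42 ± 0.22 (-0.90 to 0.06, adjusted p = 0.392). Cyp2d22, an enzyme of drug oxidation, read 66.3, 64.5 and 66.6 CPM in WTF and 64.4, 57.9 and 53.2 CPM in KOF, so the groups barely missed each other (-0.18 ± 0.21, adjusted p = 0.737).

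The Cyp2a genes spread widely among the Siah2 KO females. The summed Cyp2a level was 2076, 2198 and 1625 CPM in WTF and 2878, 2470 and 1050 CPM in KOF, with KOF 1070 and 1104 above and KOF 1105 below all WTF. The fitted changes were -0.08 ± 0.44 for Cyp2a4, 0.66 ± 0.36 for Cyp2a5, -0.62 ± 0.33 for Cyp2a12 and 0.44 ± 0.72 for Cyp2a22, with adjusted p from 0.401 to 0.956. Without KOF 1105 they were 0.30, 0.95, -0.32 and 0.97, so the sign of Cyp2a4 turned, and none passed. Without KOF 1070 Cyp2a22 turned to -0.48. The 95% interval for Cyp2a22, -1.16 to 2.04, holds changes of large size in either direction.

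In males the changes were narrower. The fitted values of the 7 tested genes ran from -0.12 for Cyp2d22 to 0.20 for Cyp2d9, all with an adjusted p of 0.9999. For Cyp2d10 (0.04 ± 0.15) the 95% interval was -0.28 to 0.36, and for Cyp2d26 (0.11 ± 0.15) it was -0.21 to 0.43. Groups did not overlap for 0 of the 7 tested genes, beside 8.87% of all genes tested. Cyp2a4, which was below the read minimum in males and so not among the genes tested, had 1 read in each WTM and 4 to 7 reads in each KOM. Its reads per total were 4.09 times as many in KOM (95% exact interval 1.18 to 21.8, from 17 and 3 reads, counting error only). With no filter beyond 1 count, edgeR gave 1.91 ± 1.16 (adjusted p = 0.957).

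**Figure D4:**
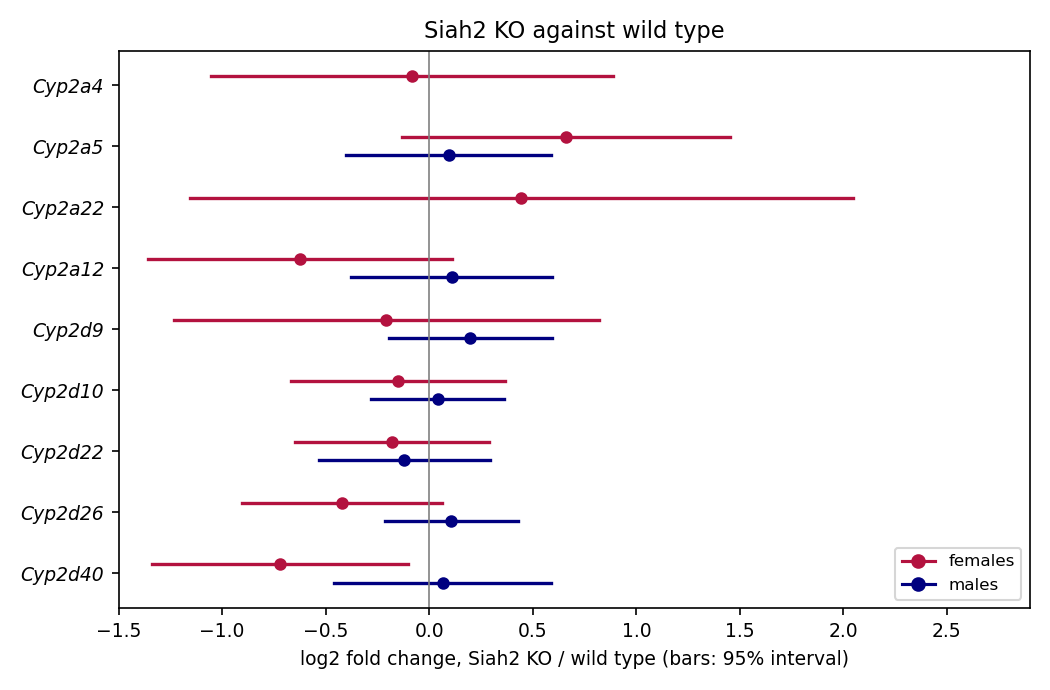
Log2 fold change of Siah2 KO over wild type for the 9 genes in females (red) and males (blue), with 95% intervals; Cyp2a4 and Cyp2a22 were not tested in males. No adjusted p was under 0.05, and the intervals are wider in females (-1.16 to 2.04 for Cyp2a22) than in males (-0.28 to 0.36 for Cyp2d10).

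The interaction of sex and genotype was fitted over all 12 mice. It is the log2 change with Siah2 loss in females less that in males. It was called for 0 of the 9 genes beside 0.255% of 9806 genes, with adjusted p of 0.342 and above; at an unadjusted p under 0.05 there was 1 of the 9 and 14.1% of all genes, and DESeq2 called 0 of 9 beside 3.46%. The widest was Cyp2a4 at -1.999 ± 1.08 (95% interval -4.29 to 0.30, adjusted p = 0.439), which rests on the few male reads. Cyp2d40 gave -0.78 ± 0.36 (adjusted p = 0.342), Cyp2d26 -0.52 ± 0.25 (adjusted p = 0.367) and Cyp2a5 0.57 ± 0.47 (adjusted p = 0.650).

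The 9 genes were ordered by mean level in each group. In WTF the means fell from Cyp2a12 (774 CPM ± 96.0, SD) and Cyp2a5 (714 ± 199), which overlapped, to Cyp2a4 (405 ± 93.6), Cyp2d10 (336 ± 69.4) and Cyp2d26 (335 ± 34.2), whose ranges also met. Cyp2a22 (74.5 ± 16.0) and Cyp2d22 (65.8 ± 1.17) overlapped in turn, as did Cyp2d40 (24.9 ± 5.22) and Cyp2d9 (19.7 ± 3.80) at the bottom. In WTM Cyp2a5 (649 ± 167), Cyp2a12 (542 ± 213) and Cyp2d9 (494 ± 107) overlapped at the top, and Cyp2a22 (2.29 ± 2.78) and Cyp2a4 (0.523 ± 0.227) were last and overlapped. In KOF Cyp2a5 (1139 ± 485) stood first, followed by Cyp2a12 (507 ± 214), which overlapped it, and Cyp2a4 (385 ± 235). Cyp2a4 overlapped Cyp2a12, but its highest KOF value (612 CPM) was below the lowest of Cyp2a5 (629 CPM). Cyp2d9 (17.8 ± 12.6) and Cyp2d40 (15.1 ± 2.51) were last in KOF and overlapped. In KOM the top 3 were those of WTM, with Cyp2a5 at 698 ± 250, Cyp2a12 at 586 ± 78.2 and Cyp2d9 at 571 ± 102, and Cyp2a4 (1.90 ± 0.306) and Cyp2a22 (1.76 ± 1.12) were last and overlapped. The 5 Cyp2d genes summed to 781 CPM ± 98.7 in WTF, 649 ± 39.6 in KOF, 1188 ± 134 in WTM and 1293 ± 169 in KOM. Every male total was above every female total. Cyp2d9, the only Cyp2d member called between the sexes, gave 494 and 571 CPM of the WTM and KOM means. In WTF and KOF it gave 19.7 and 17.8 CPM, so the totals do not describe the other Cyp2d genes.

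Other genes of the same clusters were read from fixed lists. Of 10 further genes of the chromosome 7 cluster, 9 were in the tables and 4 were tested between the sexes. Over all genes tested between the sexes, 1.39% were called in wild type mice and 11.5% in Siah2 KO mice. The xenobiotic P450 genes Cyp2b9 and Cyp2b13 were higher in wild type females (7.64 ± 0.64, adjusted p = 0.000197, and 11.4 ± 0.78, adjusted p = 0.000272); Cyp2b13 was listed at 0 in all 3 WTM. In Siah2 KO mice 3 were higher in females, namely Cyp2b9, Cyp2b13 and Cyp2b10 (7.23, 8.30 and 3.76), and Cyp2f2, which is expressed around the portal vein, was lower (-0.70 ± 0.15, adjusted p = 0.00663). Cyp2b10 and Cyp2f2 had the same direction in wild type mice without a call. Cyp2b10 read 14.3 to 35.5 CPM in WTF and 3.05 to 8.51 CPM in WTM, and Cyp2f2 269 to 350 CPM in WTF and 369 to 452 CPM in WTM. Of 7 further Cyp2d genes, 5 were in the tables and 2 were tested, with 0 called in any comparison. Cyp2d13 read 23.7 to 79.2 CPM over the 12 mice, Cyp2d11 at most 1.08 CPM, and Cyp2d34, which shares 34 of the 251 end windows of Cyp2d10, was listed at 0 in all.

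The electron donors and membrane partners of these enzymes were read next. Of 5 such genes, 4 were tested in each comparison. Between the wild type sexes 0 were called (1.39% of all genes), and between the Siah2 KO sexes 2 of the 4 (11.5% of all genes). Por, the P450 reductase, was higher in Siah2 KO females (0.69 ± 0.16, adjusted p = 0.0147) and Cyb5r3, the cytochrome b5 reductase, lower (-0.68 ± 0.16, adjusted p = 0.0120). Cyb5r3 was also lower in every WTF (233 to 250 CPM) than in every WTM (258 to 312 CPM), without a call. Pgrmc1 was too (755 to 963 CPM against 1370 to 1599 CPM), while Por (239 to 566 CPM against 180 to 361 CPM) and Cyb5b overlapped. Of 13 regulators tied to these families, 11 were tested. None was called between the wild type sexes, and in Siah2 KO mice 2 of the 11 (11.5% of all genes were called there) were lower in females, the hepatocyte factor Hnf4a (-0.63 ± 0.17, adjusted p = 0.0275) and the bile acid responsive repressor Nr0b2 (-1.82 ± 0.49, adjusted p = 0.0285, 1.47 to 4.78 CPM in KOF). Of 15 genes of growth hormone signalling and sex-biased regulation, 13 were tested between the sexes. Prlr, the prolactin receptor, was the 1 called of 13 in wild type mice (1.39% of all genes) (1.69 ± 0.29, adjusted p = 0.0195), and Prlr and Trim24, a nuclear receptor cofactor, were the 2 called of 13 in Siah2 KO mice (1.81 and 1.90), again beside 11.5% of all genes. Trim24 was also higher in every WTF (31.1 to 72.1 CPM) than in every WTM (17.0 to 19.1 CPM), without a call. Between the wild type sexes, 22.7% of all genes tested had groups that did not overlap, in either direction.

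Genes known for their sex in mouse liver had the sex bias for which they were listed wherever they were called. Several had 0 reads in all mice of a wild type sex and passed the read minimum through the other sex alone. Their direction was thus fixed in advance. Of 11 male-type genes 10 were tested and 10 were lower in females in both genotypes, among them Cyp4a12b (-11.09 and -8.97), Cyp4a12a (-9.42 and -6.24) and Hsd3b5 (-7.76 and -6.53). Of 12 female-type genes, 9 were tested in wild type mice and 6 were higher in females, and 6 of the 6 tested in Siah2 KO mice were higher. Examples are A1bg (12.83 and 7.15) and Sult3a1 (10.40 and 8.36). Cyp4a12b was at 0 in every WTF, and A1bg and Sult3a1 were at 0 in every WTM. The size of these fold changes therefore depends on how the fit treats libraries with 0 reads. Of 10 pericentral genes, 0 were called between the sexes. Of 9 periportal genes 0 were called in wild type mice, and in Siah2 KO mice Hal and Arg1 were higher in females and Cyp2f2 and Cdh1 lower. Beside these lists, 1.39% of all genes tested were called between the wild type sexes and 11.5% between the Siah2 KO sexes. For each of these 9 lists, 0 genes were called by genotype in females, by genotype in males, or for the difference between those effects. The shares over all genes tested were 0.0%, 0.0% and 0.255%, so these zeros say nothing particular to the lists. Ass1, a urea cycle gene of liver, read at most 2.57 CPM, so a row near 0 in these tables does not show that a transcript was absent.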

How the data were processed

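Liver RNA of 12 mice was profiled with QuantSeq 3' libraries without molecular identifiers. The authors mapped and counted the reads per gene and deposited 1 table of raw counts per sex, with no normalization. The submitters' processing notes name STAR, DESeq and mm10 without versions or roles, and how reads matching several genes were treated is not stated. Each column was matched to its mouse by number.

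Library totals were 1293688 to 4056144 counts. All genes passing filterByExpr were fitted with edgeR 4.0.16 under R 4.3.3, with TMM factors, a two-sided quasi-likelihood test and Benjamini-Hochberg adjustment at 0.05, each comparison on its own groups and the interaction on all 12 mice; every adjusted p without another tool's name is from this test. Because the labels also speak of pooled RNA, p-values measure the spread between these libraries, which may be partly technical. Standard errors and 95% intervals follow from the test statistic. DESeq2 1.42.0 and limma 3.58.1 (voom, with and without library quality weights), other scalings and filters, thinning to 1293688 counts, a fit of all 4 groups, summed rows of near-identical genes and each mouse left out were the alternatives. The fitting code was tested on simulated data with known changes.

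The members, the gene lists and the rule for named genes were chosen with earlier results of these data known. The rule names the 9 members in every comparison, the 2 genes most correlated with each over the 12 mice (mean of at least 10 CPM), at most 3 called genes per list and comparison, and Siah2; further genes in the text illustrate a list or a limit and were chosen after their values were seen. The values of 1 gene of the female-type list are not reported here. Promoter sequences and positions are from RefSeq (GRCm38.p6). Transcript sequences for identities and end windows are from GENCODE M1. Python 3.11.15, scipy 1.17.1 and Biopython 1.88 were used for exact tests, intervals and alignments.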

Additional observations from a re-analysis of the deposited data

How the results depend on the processing

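The calls of Cyp2a4, Cyp2a22 and Cyp2d9 between the sexes kept their direction in every alternative run, and 0 members were called by genotype or for the interaction in any. With at least 10 counts in every library 1 member was called in each sex comparison (Cyp2d9), because Cyp2a4 and Cyp2a22 then were not tested. Leaving out 1 mouse gave 3 members called in wild type mice, and 3 to 4 in Siah2 KO mice. Over all genes, the count by genotype in females was 0 by the main test, 0 to 1058 over 9 alternatives and 936 without WTF 1091; in males it was 0, and 0 to 29, with 3 without WTM 1086; between wild type sexes 130, and 50 to 802, with 740 without WTF 1091, 76 without WTM 1086, 45 without WTM 1055 and 43 without WTM 1087; between Siah2 KO sexes 1044, and 352 to 1261, with 562 without KOF 1104, 552 without KOF 1070 and 486 without KOM 1081; and for the interaction 25, and 0 to 558, with 522 without WTF 1091 and 0 to 9 without any 1 of the other 11 mice. The cause was not tested.

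Of the members' single log2 fold changes, 368 of 381 values under other settings and 288 of 312 with 1 mouse left out kept direction and side of the threshold. Cyp2a22 between Siah2 KO sexes was not called by limma-voom (5.58) or with quality weights (5.83), and Cyp2a5 there was called with no filter beyond 1 count (0.71, adjusted p = 0.00349). Summed rows were lost from the calls between wild type sexes (Cyp2a4 with Cyp2a5 at 0.81; Cyp2d9 with Cyp2d10 and Cyp2d11 at -1.22), and for Cyp2a4 with Cyp2a5 turned the sign by genotype in females (0.43) and in the interaction (0.34). Signs that turned, none of them on called values, were by genotype in females Cyp2a22 with limma-voom (-0.31) and Cyp2d10 with quality weights (0.0073); with thinned libraries Cyp2d40 by genotype in males (-0.020), Cyp2d26 between Siah2 KO sexes (0.015) and Cyp2d22 in the interaction (0.088); and Cyp2a22 in the interaction with limma-voom (-0.079). With 1 mouse left out the ranges that crossed 0 were, by genotype in females, Cyp2a4 -0.58 to 0.30, Cyp2a22 -0.48 to 0.97, Cyp2d9 -0.86 to 0.19 and Cyp2d10 -0.27 to 0.037 (above 0 only without WTF 1091). By genotype in males they were Cyp2a5 -0.21 to 0.33, Cyp2a12 -0.094 to 0.46, Cyp2d10 -0.052 to 0.12, Cyp2d22 -0.27 to 0.015 and Cyp2d40 -0.089 to 0.19. Between wild type sexes they were Cyp2a5 -0.037 to 0.39 and Cyp2d10 -0.25 to 0.038, between Siah2 KO sexes Cyp2a12 -0.48 to 0.095 and Cyp2d26 -0.12 to 0.017, and in the interaction Cyp2a22 -0.78 to 1.56 and Cyp2d22 -0.18 to 0.091.

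No paired analysis was possible because each mouse number occurs in 1 group alone. Cyp2a4 had 1 to 7 reads per male library, too few for the test by genotype in males, and how reads shared by near-identical genes were assigned cannot be recovered from the tables.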

Other observations

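Among the 6686 genes that averaged 10 CPM or more, those whose log2 CPM followed a member most closely over the 12 mice were picked by Pearson's r, as a description, since the mice share sex, genotype and depth. For the members that differ between the sexes the search over both sexes largely fixed that sex-biased genes would be found. These were Cyp2b13 and the female-expressed Xist for Cyp2a4 (r = 0.99 for both), Serpine2 and the male urinary protein gene Mup20 for Cyp2d9 (r = 0.99 for both), and the carboxylesterase gene Ces1g and the sulfotransferase gene Sult1a1 for Cyp2a22 (r = 0.97 and 0.95). Within females and within males (6 mice each) r was 0.62 and 0.53 for Cyp2a4 with Cyp2b13, 0.24 and 0.78 for Cyp2a4 with Xist, 0.87 and 0.84 for Cyp2d9 with Serpine2, 0.92 and -0.072 for Cyp2d9 with Mup20, 0.90 and 0.88 for Cyp2a22 with Ces1g, and 0.93 and -0.040 for Cyp2a22 with Sult1a1. The values within males for Cyp2a4 and Cyp2a22 rest on 1 to 7 and 1 to 11 reads of these genes per library. Cyp2b13 read at most 0.432 CPM in males. For the members with no call between the sexes, r over all mice, in females and in males was as follows, where the choice of the gene over the same mice largely fixes the values within each sex: Cyp2a12 with Rsrc1 (r = 0.94 over all, 0.98 in females and 0.98 in males), Cyp2d40 with Man1b1 (0.93, 0.98 and 0.91), Cyp2d10 with Wdtc1 (0.94, 0.98 and 0.84), Cyp2d22 with Derl2 (0.91, 0.92 and 0.84) and Cyp2a5 with Dmgdh, a gene of choline breakdown (0.86, 0.86 and 0.79). Cyp2d26 was closest to Nr1i2, the xenobiotic receptor PXR (0.91, 0.91 and 0.98), and next to Gcdh (0.90). The other close genes were Tmem256 for Cyp2a5, Phldb2 for Cyp2a12, 2310036O22Rik for Cyp2d10, H2-Q10 for Cyp2d22 and Atp9a for Cyp2d40, with r from 0.83 to 0.93.

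KOF 1105 was at the edge of the female range in the sex-biased members and in most of the other members. It had the lowest Cyp2a4 (143 CPM) and Cyp2a22 (7.78 CPM) and the highest Cyp2d9 (31.7 CPM) of the 6 females. It was also the lowest female for Cyp2a12 (270 CPM), Cyp2d22 (53.2 CPM), Cyp2d26 (234 CPM) and Cyp2d40 (13.2 CPM), which were not called between the sexes. For Cyp2a5 (629 CPM) and Cyp2d10 (311 CPM) it lay within the range of the other females. Over the lists, the female-type genes summed to 276 CPM in it against 423 to 1007 CPM in the other 5 females, and the male-type genes to 255 CPM against 88.3 to 225 CPM, where males had 3741 to 7394 CPM. The lists were mixed gene by gene: KOF 1105 was the highest female in 3 of 11 male-type genes (Cyp4a12a, Mup20 and Cyp7b1), the lowest in 1 (Elovl3, 3.59 CPM) and at 0 in 4, and it was the lowest female in 6 of 12 female-type genes and the highest in 1. Cyp4a12a read 16.1 CPM in it, at most 0.952 CPM in the other females and 181 CPM or more in males. Its library had 1671189 reads, the lowest total among females, and its hepatocyte markers summed to 45122 CPM, also the lowest among females. These markers were mixed gene by gene. KOF 1105 was the lowest female for Ttr, Apoa1, Serpina1c and Ahsg, the highest for Cps1 (335 CPM) and Tat (504 CPM), and in between for Alb and Apoa2.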
